A study of Mus musculus with 51 samples.

Results

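The fibrinogen chains are the products of Fga, Fgb and Fgg, which encode the Aα, Bβ and γ chains of fibrinogen. These 3 genes, of the 33773 in the matrix of expression values, were chosen by name, with no measured value in the rule. RNA was sequenced in 21 mouse libraries of 6 groups, among 51 samples of the series; the chromatin samples were not analysed here. Values are RPKM, read counts that the authors scaled to gene length and library size, so levels of different genes can be set side by side per length.

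The hepatocyte libraries form 4 groups. FoxA triple null (4 libraries) comes from FoxA3-/- mice with floxed FoxA1 and FoxA2 that received, at 8 weeks of age, adeno-associated virus 8 carrying Cre recombinase under the hepatocyte-specific Tbg promoter. FoxA3 null (4 libraries) comes from mice of the same alleles given the virus with GFP, also at 8 weeks, so both groups lack FoxA3 and both received a virus. FoxA1/A2 lox (3 libraries) and FoxA1/A2 Cre alfp (4 libraries) carry FoxA3; only the latter has the FoxA1 and FoxA2 deletion, and its label names Cre alfp, and what alfp stands for, the mice's age and any virus are not given in the sources used here. From whole liver there are 2 HNF4a control libraries and 4 labelled HNF4a null, in which, by the labels, the gene was depleted in adults; their Cre driver and the treatment of the controls are not given either. Nothing in the labels says that libraries of a group came from separate animals, so p-values measure the spread between these libraries, which may be technical.

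The targeted genes were looked at first. Foxa3 was at most 0.0114 RPKM in the 8 FoxA3 null and triple null libraries and 19.0 to 34.5 RPKM in the 7 others from hepatocytes. Mean Foxa2 was 0.366 ± 0.103 RPKM in the triple null (SD, n = 4) against 13.7 ± 4.58 in FoxA3 null (n = 4), and mean Foxa1 was 3.28 ± 0.283 against 8.50 ± 1.85 RPKM. Cre alfp libraries held Foxa1 at 1.14 to 1.34 RPKM and Foxa2 at 0.991 to 1.26, whereas lox libraries held 4.71 to 8.21 and 6.84 to 19.2 RPKM. Hnf4a went against its label: it was 118 and 126 RPKM in the control livers and 487 to 545 RPKM in the livers labelled HNF4a null, so that group is called by its label below; were the labels exchanged, every liver difference would change sign. RPKM gives 1 value per gene and does not show whether a transcript lacks deleted exons. Relative depth ran from 1 to 1.1 in liver and from 2.01 to 4.07 in hepatocytes. Lox and Cre alfp libraries differed from FoxA3 null and triple null libraries in many genes, and each side holds 1 FoxA3 genotype, so FoxA3 genotype and whatever else parted these sides cannot be told apart.

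Fibrinogen is the plasma protein that thrombin cleaves to make fibrin, the mesh of a blood clot. Hepatocytes make nearly all of it, and they assemble it in the endoplasmic reticulum from paired copies of each chain held by disulfide bonds, so that all 3 chains are needed for secretion. The genes lie side by side, and in the acute phase response interleukin 6, through STAT3, raises them together with other class 2 acute phase proteins; C/EBP factors are known at their promoters.

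In the gene table of assembly GRCm38.p6 the order along chromosome 3 is Fgg, Fga, Fgb, with Fgb on the opposite strand from the other two. All 3 chains matched the RefSeq promoter table. The 250 bases before each annotated start are shown because the chains moved together in several comparisons and because forkhead, HNF4a, C/EBP and interleukin 6 response letters could be looked for in them; capitals mark every match. Each is written 5′ to 3′ on the strand of its gene, from RefSeq, GRCm38.p6.
Fgg, chr3:83007474-83007723, plus strand: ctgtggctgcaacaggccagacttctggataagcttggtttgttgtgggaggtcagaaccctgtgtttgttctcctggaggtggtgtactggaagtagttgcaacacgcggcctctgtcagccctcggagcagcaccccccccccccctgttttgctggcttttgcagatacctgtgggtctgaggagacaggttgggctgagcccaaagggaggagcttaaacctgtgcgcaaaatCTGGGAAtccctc
Fga, chr3:83025903-83026152, plus strand: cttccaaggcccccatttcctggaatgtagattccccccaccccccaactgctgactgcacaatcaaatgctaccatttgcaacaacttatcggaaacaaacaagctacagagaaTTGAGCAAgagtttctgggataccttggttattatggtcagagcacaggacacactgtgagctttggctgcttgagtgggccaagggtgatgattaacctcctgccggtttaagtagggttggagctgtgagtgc
Fgb, chr3:83049864-83050113, minus strand: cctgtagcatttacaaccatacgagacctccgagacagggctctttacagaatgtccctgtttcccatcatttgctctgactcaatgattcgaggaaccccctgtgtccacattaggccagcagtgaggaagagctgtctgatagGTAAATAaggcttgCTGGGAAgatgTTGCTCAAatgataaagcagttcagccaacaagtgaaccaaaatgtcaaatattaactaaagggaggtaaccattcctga

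The motifs were searched on both strands. For forkhead proteins, the family of the FoxA factors, these were TGTTTAC, then its variant TATTTAC, then the variant TGTTTGC. For HNF4a the letters were CAAAGTCCA or else CAAAGGTCA. For C/EBP they were TTGCGCAA, its looser form TTGCNNAA, as well as ATTGCAT. For interleukin 6 response CTGGGAA was taken, and for the TATA box the letters TATAAA. TTGCNNAA also covers TTGCGCAA. CTGGGAA matched 13 to 7 bases before the Fgg start and 91 to 85 bases before the Fgb start, and 9.1% of 32851 promoter windows of this length hold it. TTGCNNAA, which 9.56% of windows hold, matched in Fga from 135 to 128 bases and in Fgb from 80 to 73 bases before the start. The forkhead letters TATTTAC, in 2.73% of windows, matched in Fgb only, on the opposite strand, 105 to 99 bases before the start. TGTTTAC (3.17% of windows), TGTTTGC (4.3%), CAAAGTCCA (0.384%), CAAAGGTCA (0.426%), TTGCGCAA (0.164%), ATTGCAT (1.76%) and TATAAA (12.4%) had no match in any of the 3 windows. Of the letters searched, the Fgb window thus held 3 matches and those of Fga and Fgg 1 each, and none was shared by all 3. Other spellings of these motifs, forkhead ones included, were not searched. A window without a match, such as those of Fga and Fgg for forkhead, may therefore still hold such letters. A match is a description of the letters; binding at these windows was not measured here.

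**Figure D1:**
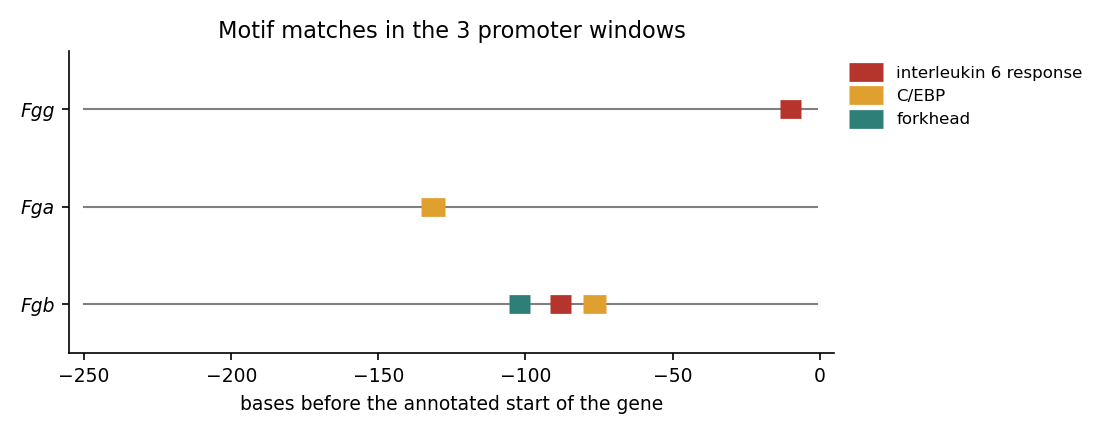
Motif matches in the 250 bases before the annotated start of each chain gene; the x axis gives bases before the start and each coloured block is 1 match. Among the letters searched, Fgb holds a match of 3 kinds, and Fga and Fgg of 1 kind each. Other spellings were not searched.

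Fga, the Aα chain from which thrombin releases fibrinopeptide A, was highest in FoxA3 null among the hepatocyte groups. It was 2006, 2412, 1832 and 2250 RPKM in FoxA3 null replicates 1 to 4 and 690, 654, 1370 and 798 RPKM in triple null replicates 1 to 4. The lox libraries held 1100, 1256 and 1154 RPKM and the Cre alfp libraries 1239, 1123, 1209 and 1110 RPKM. Every FoxA3 null library lay above every other hepatocyte library, and lox and Cre alfp overlapped almost entirely. Triple null replicate 3, at 1370 RPKM, lay above all lox and Cre alfp libraries, while the other triple null libraries lay below them. In liver, Fga was 1241 and 1139 RPKM in the controls and 1063, 3506, 1277 and 1685 RPKM in those labelled HNF4a null; the highest of these carries the barcode GGCTAC.

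Fgb, the Bβ chain, was the most abundant chain in 20 of 21 libraries. FoxA3 null libraries gave 2310, 3209, 3031 and 2699 RPKM, and triple null libraries 1269, 1114, 1587 and 1488 RPKM. Lox held 2795, 3053 and 2584 RPKM and Cre alfp 2271, 2503, 2162 and 1911 RPKM. All 4 triple null libraries were below all 11 other hepatocyte libraries, and FoxA3 null overlapped lox. The control livers had 1946 and 1726 RPKM, and the livers labelled HNF4a null 2314, 6176, 2463 and 3191 RPKM, all above the controls.

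Fgg, the γ chain that carries the platelet and crosslinking sites of fibrinogen, measured 1963, 2582, 2495 and 2351 RPKM across FoxA3 null, while the triple null gave 1039, 930, 1730 and 1197 RPKM. Lox held 1845, 2054 and 1869 RPKM and Cre alfp 1879, 2101, 1849 and 1488 RPKM. Triple null replicate 3 was again the highest of its group and lay above Cre alfp replicate 4. The control livers had 1033 and 976 RPKM and the livers labelled HNF4a null 897, 2830, 1034 and 1320 RPKM, so in liver the groups overlapped. The library with barcode GGCTAC was the highest of all 21 libraries for each chain.

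**Figure D2:**
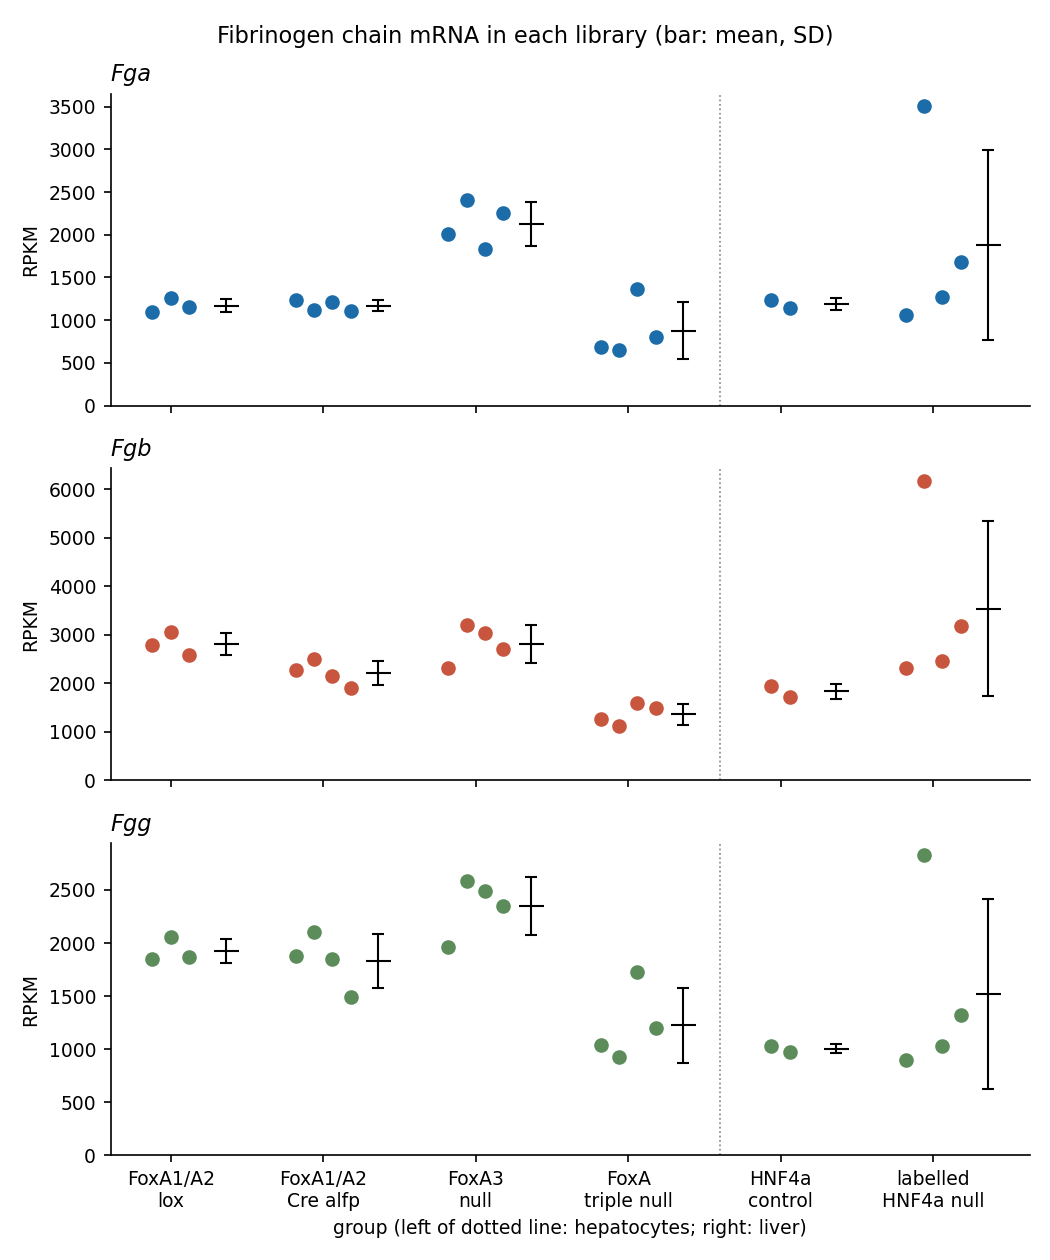
RPKM of each chain (y axis, from 0) in every library, by group; points are libraries in label order, and the black mark gives mean and SD. The 4 triple null points lie below the 4 FoxA3 null points for each chain, and 1 library labelled HNF4a null lies far above its group.

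By group mean, the order for Fga was FoxA3 null (2125 ± 257 RPKM, SD), the livers labelled HNF4a null (1883 ± 1112), HNF4a control (1190 ± 72.1), Cre alfp (1170.2 ± 63.5), lox (1169.9 ± 79.3) and triple null (878 ± 334). Neighbours in this order all overlapped. For Fgb the order was labelled HNF4a null (3536 ± 1801 RPKM), FoxA3 null (2812 ± 396), lox (2811 ± 235), Cre alfp (2212 ± 246), HNF4a control (1836 ± 156) and triple null (1365 ± 213). Here lox and Cre alfp did not overlap, nor did HNF4a control and triple null, and the other neighbours did. For Fgg it was FoxA3 null (2348 ± 274 RPKM), lox (1923 ± 114), Cre alfp (1829 ± 254), labelled HNF4a null (1520 ± 891), triple null (1224 ± 354) and HNF4a control (1004 ± 39.9), and all neighbours overlapped. Within a library the chains stayed among the most abundant of all genes: FoxA3 null libraries held them at ranks 30 to 60, lox at 42 to 85, Cre alfp at 42 to 87, the triple null at 56 to 132 and liver at 20 to 88.

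Triple null against FoxA3 null asks what deleting FoxA1 and FoxA2 does where FoxA3 is already absent. All 3 chains fell, to 41.3% of the FoxA3 null mean for Fga, 48.5% for Fgb and 52.1% for Fgg, and no triple null library overlapped a FoxA3 null library for any chain. On the log2(RPKM + 1) scale Fga fell by 1.33 (SE 0.19, limma adjusted p 0.000113), Fgb by 1.05 (SE 0.14, adjusted p 7.03e-05) and Fgg by 0.97 (SE 0.17, adjusted p 0.000784), with adjustment over the 11500 genes tested. This fit called 29.7% of all genes tested at adjusted p under 0.05, and 12.3% of all were called lower, so calls were common; Fga and Fgb also passed an absolute log2 difference of at least 1 in the lower direction, as did 3.95% of genes. Of 164 genes with a mean of at least 500 RPKM in hepatocytes, 45 were called lower and 42 higher. Among them 19 had a more negative difference than Fga, 26 than Fgb and 27 than Fgg. The median difference of all genes was 0.05. Replicate 3 of the triple null held the highest level of each chain in its group; without it the differences were -1.57 for Fga, -1.12 for Fgb and -1.15 for Fgg. Fewer hepatocytes in a sample and less RNA per hepatocyte cannot be told apart in such bulk libraries.

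Cre alfp against lox concerns deletion of the same genes, FoxA1 and FoxA2, with FoxA3 present. However, Foxa1 was left at lower and Foxa2 at higher levels in Cre alfp than in the triple null. Between Cre alfp and lox 5.46% of genes were called. That was 628 genes, and leaving out 1 library at a time gave 278 to 595. None of the 3 chains was called. Fga differed by 0.00 on the log2 scale (95% interval -0.43 to 0.43, limma adjusted p 0.999), and its sign turned to -0.024 with median scaling and to -0.00177 with upper-quartile scaling. Fgg differed by -0.08 (interval -0.48 to 0.32, adjusted p 0.88), and by 0.12 after quantile normalization. Fgb differed by -0.35 (interval -0.67 to -0.03, adjusted p 0.225), and its 4 Cre alfp libraries all lay below its 3 lox libraries.

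The difference between these deletion effects was tested as an interaction, which called 14.4% of all genes tested, and 6.17% of all as negative. It was -1.33 for Fga (SE 0.28, limma adjusted p 0.00598), -0.70 for Fgb (SE 0.20, adjusted p 0.0362) and -0.89 for Fgg (SE 0.25, adjusted p 0.0316), so the fall of each chain was larger on the FoxA3-deficient side. The Fga call held without any single library, at -1.57 to -1.21. The Fgg call was lost on leaving out lox replicate 1, 2 or 3, Cre alfp replicate 1, 2 or 3, FoxA3 null replicate 2 or 4, or triple null replicate 1, 2 or 4, with values of -0.94 to -0.77 and adjusted p of 0.0506 to 0.0761. That of Fgb was lost on leaving out lox replicate 1 or 3, Cre alfp replicate 1, 2 or 3, FoxA3 null replicate 2, 3 or 4, or triple null replicate 1 or 2, with values of -0.71 to -0.60 and adjusted p of 0.0532 to 0.0784. The calls of Fgg and Fgb were also lost without a filter on low values (limma adjusted p 0.0812 and 0.0946). That of Fgb was lost with median scaling (0.0539) and with a replicate block (0.0607) too.

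**Figure D3:**
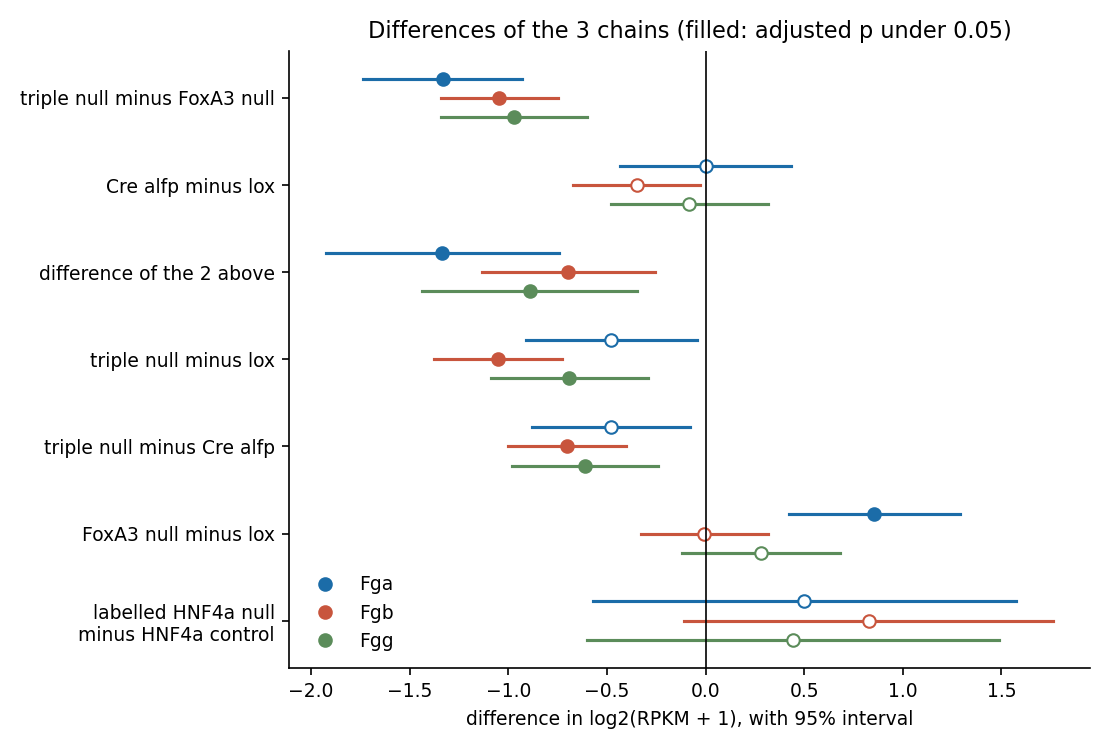
Differences in log2(RPKM + 1) of the 3 chains in each comparison (x axis), with 95% intervals; filled points have a limma adjusted p under 0.05. The intervals of triple null minus FoxA3 null lie wholly below 0 for every chain, and those of the liver comparison all cover 0.

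The comparisons that follow cross the line between FoxA3 genotypes, and they share libraries with those above. Against lox, where 42.5% of genes were called and 14.8% were lower, the triple null had Fgb at -1.05 (SE 0.15, limma adjusted p 8.85e-05), Fgg at -0.69 (SE 0.19, adjusted p 0.00883) and Fga at -0.48 (SE 0.20, adjusted p 0.0706), which was not called. Relative to the median of all genes, which was 0.13 here, these came to -1.18, -0.82 and -0.61. Without triple null replicate 3 the Fga difference was -0.71 and passed (adjusted p 0.000727), and over the alternatives that kept every library of both groups it ran from -0.66 to -0.38, with adjusted p of 0.0117 to 0.151. The Fgg call was lost after quantile normalization (-0.42, adjusted p 0.0758). Against Cre alfp, where 41.2% of genes were called, Fgb was at -0.70 (adjusted p 0.00125), Fgg at -0.61 (adjusted p 0.012) and Fga at -0.48 (adjusted p 0.0535, not called). Without triple null replicate 3, Fga was at -0.72 against Cre alfp (adjusted p 0.000527).

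FoxA3 null against lox called 34.8% of genes, and 21.7% as higher. Of the chains only Fga was called. No ratio test between the chains passed, but with so few libraries those tests could hardly pass, as described below. The log2 ratio Fga/Fgb was 0.86 higher in FoxA3 null than in lox, without overlap. Fga was 0.85 higher on the log2 scale (SE 0.20, limma adjusted p 0.00676), a factor of 1.81, and its libraries did not overlap. Fgg was at 0.28 (adjusted p 0.25) and Fgb at -0.01 (interval -0.33 to 0.32, adjusted p 0.976). Quantile normalization changed this: it gave 0.52 for Fgb (adjusted p 0.0106) and 0.53 for Fgg (adjusted p 0.0353), so only the direction of Fga and Fgg held under each scaling. The fall of Fga between FoxA3 null and triple null therefore starts from a level that no other hepatocyte group reached.

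In liver the libraries labelled HNF4a null were compared with HNF4a control, with 52.8% of 12434 genes called and a median difference of 0.34 over all genes. No chain was called. Fga was at 0.50 (95% interval -0.57 to 1.57, limma adjusted p 0.374), Fgb at 0.83 (interval -0.11 to 1.76, adjusted p 0.115) and Fgg at 0.44 (interval -0.60 to 1.49, adjusted p 0.419). The library GGCTAC lay far above its group. Without it the differences were 0.15 for Fga, 0.52 for Fgb (adjusted p 0.0536) and 0.09 for Fgg, beside that median of 0.34 for all genes in the full fit.

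The proportion of the chains was then examined within each library, which removes any factor common to all 3. Lox libraries had 19.2 to 20.6% of the summed RPKM of the chains in Fga, Cre alfp libraries 19.6 to 24.6%, FoxA3 null libraries 24.9 to 31.9% and triple null libraries 22.9 to 29.2%. Fgb made up 46.1 to 48.7% in lox and 33.9 to 43.7% in the other hepatocyte groups. Fgg varied least among hepatocyte libraries, from 31.3 to 36.9%, and made up 21.0 to 25.4% in liver. The chain messages were thus not present in equal amounts per length in any library, although the assembled protein holds them in equal number.

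The Fga/Fgb ratio was 0.394, 0.411 and 0.447 in lox and 0.545, 0.449, 0.559 and 0.581 in Cre alfp. FoxA3 null gave 0.868, 0.752, 0.604 and 0.834, whereas the triple null gave 0.543, 0.587, 0.863 and 0.536. Lox was thus lowest without overlap, and triple null replicate 3 sat among the FoxA3 null libraries. The Fgb/Fgg ratio was 1.51, 1.49 and 1.38 in lox, above all 12 other hepatocyte libraries, whose range was 0.918 to 1.28. In liver that ratio was 1.88 and 1.77 in the controls and 2.58, 2.18, 2.38 and 2.42 in the livers labelled HNF4a null, above every hepatocyte library. The Fga/Fgg ratio was 1.17 to 1.28 in liver and 0.534 to 1.02 in hepatocytes, so relative to Fgg both other chains stood higher in liver; tissue and preparation differ together and this was not tested.

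Log2 ratios were compared between groups with exact two-sided permutation tests, 18 in all, adjusted over the 18 by the Benjamini-Hochberg method. With 4 libraries against 4 or 3 the smallest p possible is 0.0286, and with 4 against 2 it is 0.0667. The liver tests, with 4 against 2, thus could not reach an adjusted p under 0.05. The others could do so only if many of them reached the smallest p together. A failure to pass therefore says little about the ratios. None passed: the lowest adjusted p was 0.0857, shared by 6 tests at p = 0.0286 (exact permutation). These were Fga/Fgg in triple null against lox (0.21 on the log2 scale), Fgb/Fgg in Cre alfp (-0.27), triple null (-0.36) and FoxA3 null (-0.29) against lox, and Fga/Fgb in triple null (0.57) and FoxA3 null (0.86) against lox. Each was a comparison with the 3 lox libraries, which therefore enter all 6. For triple null against FoxA3 null, where every chain fell, the ratio differences were -0.36 for Fga/Fgg (exact permutation p 0.0571, adjusted 0.109), -0.29 for Fga/Fgb (p 0.229, adjusted 0.343, exact permutation) and -0.07 for Fgb/Fgg, with the highest p of the 18 tests. The sign of the last turned to 0.03 without triple null replicate 3. Leaving out 1 library at a time gave -0.46 to -0.30 for Fga/Fgg and -0.45 to -0.22 for Fga/Fgb. In liver the Fgb/Fgg ratio differed by 0.39 and Fga/Fgb by -0.33 without overlap, both at the smallest p that 4 against 2 allows (exact permutation p 0.0667, adjusted 0.109).

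**Figure D4:**
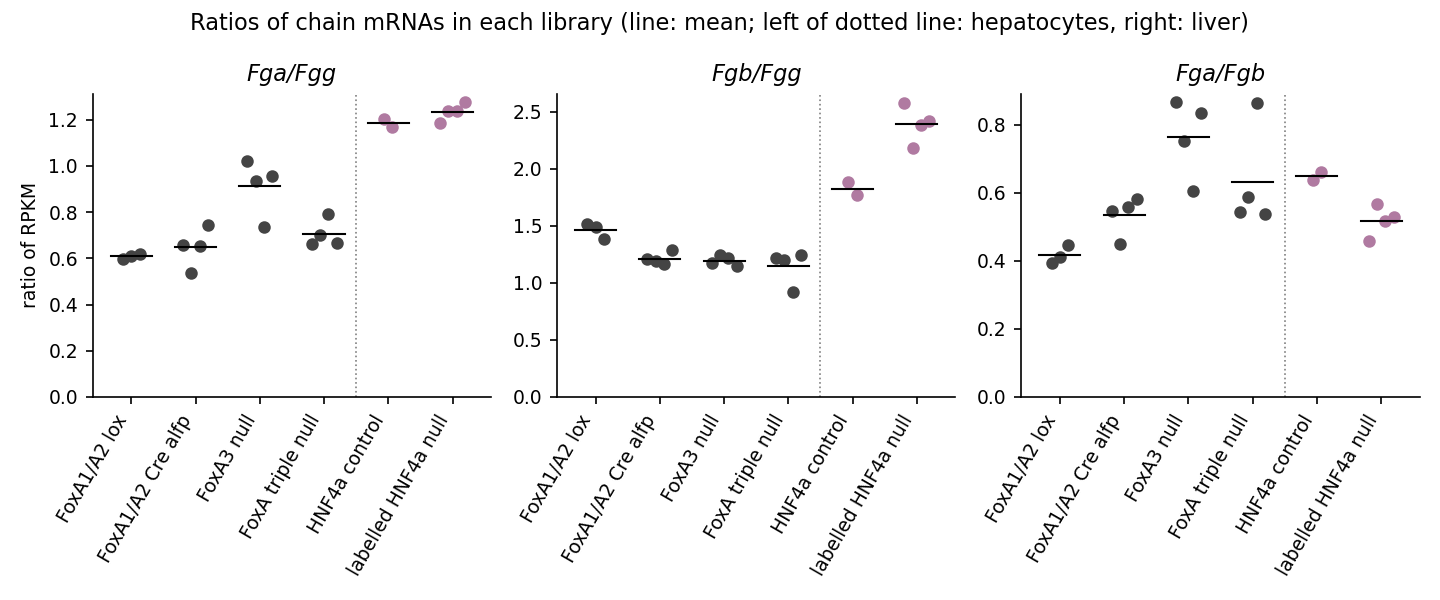
Ratios of RPKM between chains in each library (y axes, from 0), by group, with group means as lines. Lox lies above the other hepatocyte groups in Fgb/Fgg. In Fga/Fgb lox is lowest but borders on Cre alfp (0.447 in lox replicate 3, 0.449 in Cre alfp replicate 2). In both ratios 1 triple null library lies apart from its group.

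Genes were ranked by how closely their log2(RPKM + 1) followed the mean of the 3 chains across the 21 libraries. Of 7097 genes with a mean of at least 5 RPKM, the closest besides the chains themselves were Ahsg (Pearson r 0.798), Pid1 (0.79), Irf9 (0.778), Gpr108 (0.778) and Pcgf6 (0.772). These are descriptions over libraries that share groups and tissue, with no test. Ahsg encodes fetuin-A, another abundant plasma glycoprotein of hepatocytes. In triple null against FoxA3 null its log2 difference was -0.95, a value that the choice by likeness already used. Among those same genes, taking each chain singly, Fgb ranked first in likeness to Fga (Pearson r 0.833), while Fga took rank 5 for Fgb. Over all libraries Fgg was less close, at rank 16 for Fga (0.72) and rank 63 for Fgb (0.692), and for Fgg itself Fga took rank 17 and Fgb rank 26. For deviations from group means the order was reversed. Pearson r was then 0.966 for Fgb with Fgg, 0.94 for Fga with Fgg and 0.872 for Fga with Fgb. Without library GGCTAC these were 0.904, 0.85 and 0.664.

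Of the neighbours of the chains, Plrg1 was the only one tested in hepatocytes, and it was not called. Plrg1, a spliceosome component next to Fgb, averaged 14.0 ± 1.64 RPKM over the triple null libraries and 12.3 ± 0.911 over the FoxA3 null ones (SD, n = 4), which differ by 0.17 in log2 with a limma adjusted p of 0.26. Lrat, the retinol esterifying enzyme of stellate cells that lies next to Fgg, was under 1 RPKM in every hepatocyte library and 3.66 to 5.27 RPKM in liver, and it passed the filter in liver only. Mtap9, Rbm46, Npy2r, Gm10710 and Sfrp2 were all under 1 RPKM in every library. Among the neighbours measured in hepatocytes, Plrg1 alone thus exceeded 1 RPKM.

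The authors' deposited table of triple null against FoxA3 null gives log2 fold changes of -1.35 for Fga, -1.09 for Fgb and -0.99 for Fgg, in which 22.1% of 10017 genes were lower at adjusted p under 0.05. In the authors' deposited table against Cre alfp the values are -0.65, -0.91 and -0.81, and in the authors' deposited table against controls without deletion, with its sign turned, they are -0.67, -1.25 and -0.91. Fga passes 0.05 in both of these tables (adjusted p 0.00397 and 0.0108), in which 25.7% and 25.9% of genes were lower. In the main limma fit it passed neither against Cre alfp nor against lox. With median or upper-quartile scaling it passed against both. The authors' deposited table for liver gives 0.22, 0.52 and 0.15, with adjusted p of 0.801, 0.47 and 0.857. In it 24.9% of genes are lower and 21.4% higher at adjusted p under 0.05, with a median of 0.01. The limma fit in liver called 11.7% lower and 41.1% higher, and the liver counts below stand beside those shares.

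Development was covered only by deposited comparisons. In the authors' deposited table of hepatoblasts, the fetal precursors of hepatocytes and cholangiocytes, against adult hepatocytes the log2 fold changes are -3.81 for Fga (adjusted p 2.3e-21), -4.87 for Fgb and -4.55 for Fgg. In the authors' deposited table of newborn against adult hepatocytes they are 0.83 for Fga (adjusted p 1.65e-08), -0.34 for Fgb (adjusted p 0.0461) and -0.11 for Fgg (adjusted p 0.502). In the authors' deposited table of the adult triple null against hepatoblasts they are 3.15, 3.62 and 3.65, so the triple null level stood far above that of hepatoblasts. The authors' deposited tables of hepatoblast, triple null and control are not independent: the sum of both hepatoblast tables ranks 9490 genes as the table against controls does (Spearman's rho 1). Thus in these tables every chain was lower in hepatoblasts than in adults, as were 37.9% of genes, while in newborns Fga stood above the adult level, as did 31.6% of genes, and Fgb below it, as did 31.7%.

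Fibrinogen belongs to the class 2 acute phase proteins, which respond to interleukin 6. The classes below are those of the lists drawn here. Single members, such as Hp, Hpx, Lbp and Hamp2, may be classed otherwise, so counts by class depend on these lists. The other tested genes of the class 2 list fell with fibrinogen. In triple null against FoxA3 null all 8 tested members of 9 listed were lower and none was higher, with a median of -1.20 beside 0.05 over all genes; 12.3% of all genes were lower. Serpina3n, a proteinase inhibitor, fell by 5.02 (SE 0.28, limma adjusted p 8.27e-09), Hp, which encodes haptoglobin, was at -2.70 (SE 0.43, adjusted p 0.000297), Hpx, which encodes hemopexin, at -2.30 (SE 0.17, adjusted p 2.41e-07) and Fgl1, a fibrinogen-like secreted protein, at -1.25 (SE 0.27, adjusted p 0.00344). Without triple null replicate 3 the same count of 8 was lower. The chains themselves lay on either side of that median. The list of class 1 acute phase proteins, most of which respond to interleukin 1 together with interleukin 6, went the other way: 9 of 12 tested were higher and none lower (17.4% of all genes were higher), with a median of 2.01. The largest rises named were those of Hamp2, which encodes a hepcidin (5.36, limma adjusted p 9.97e-07), Lcn2, an iron-binding defence protein (5.21, adjusted p 8.28e-07), and Orm3, an orosomucoid (4.26, adjusted p 3.04e-09). Members of the Hamp, Orm, Saa and Serpina3 families share reads with near-identical copies, so their single values are uncertain.

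With FoxA3 present, the genes listed as class 2 had a median of -0.70 beside 0.02 over all genes. In Cre alfp against lox Hp was at -1.78 (limma adjusted p 0.0373), Serpina3n at -1.67 (adjusted p 0.00445) and Hpx at -1.48 (adjusted p 0.000297), the 3 of 8 that fell, where 2.62% of all genes fell; the other 5 were not called, though each had a lower mean in Cre alfp, such as Itih3, an inter-alpha-trypsin inhibitor chain, at 305 ± 114 RPKM (SD, n = 4) against 506 ± 132 in lox (n = 3). Of class 1, Hamp2 (4.76) and Orm3 (2.58) rose and Saa4 (-1.60) fell, 2 and 1 of 12, where 2.84% of all genes rose. In the livers labelled HNF4a null, 5 of 8 class 2 genes were higher and 1 lower (41.1% and 11.7% of all genes), with Fgl1 at 2.28, Lbp at 1.46, Cp at 1.35 and Hpx at -1.44. Without library GGCTAC the counts were 5 higher and 2 lower. Of class 1, 3 of 12 were higher and 5 lower there.

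**Figure D5:**
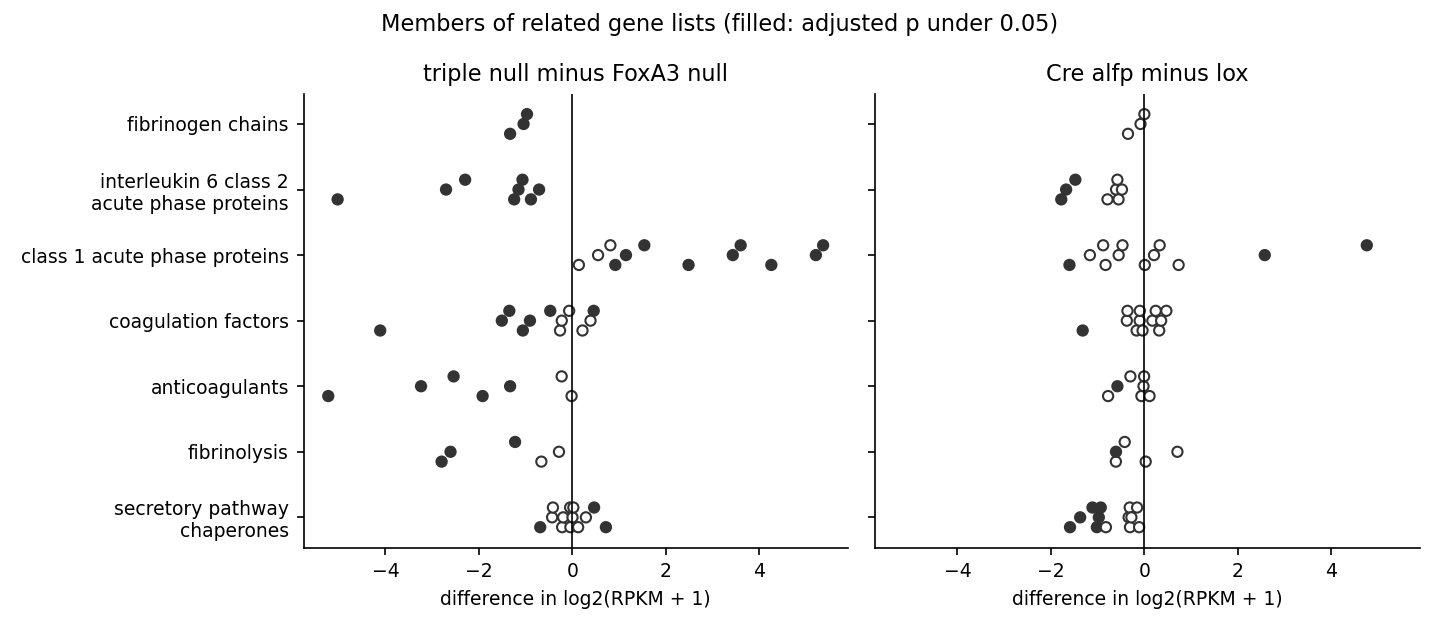
Differences in log2(RPKM + 1) for the tested members of 7 gene lists (1 point per gene), in triple null minus FoxA3 null and in Cre alfp minus lox; filled points have a limma adjusted p under 0.05. On the left all tested genes listed as class 2 lie below 0 like the chains, and the called genes listed as class 1 lie above it.

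Among the partners of fibrinogen in clotting and clot removal, lower calls outnumbered higher ones in the triple null, beside 12.3% of all genes lower and 17.4% higher. Of 12 tested coagulation factors 6 fell and 1 rose against FoxA3 null, with a median of -0.37. Without triple null replicate 3 the counts were 7 lower and 0 higher. F11, which encodes factor XI, fell by 4.11 (SE 0.21, limma adjusted p 3.74e-09), Klkb1, which encodes prekallikrein, was at -1.51 (adjusted p 2.23e-05), F2, the source of thrombin, at -1.35 (adjusted p 1.14e-06) and F10 at -1.06 (adjusted p 3.35e-06). Of 7 anticoagulants 5 fell and none rose, with Serpina10 at -5.22, Serpind1, or heparin cofactor II, at -3.24, Proz at -2.54 and Proc, which encodes protein C, at -1.92. Of 5 fibrinolysis genes 3 fell: Plg, the precursor of the plasmin that dissolves fibrin, at -2.80, Serpinf2, the plasmin inhibitor, at -2.61 and Cpb2, which protects fibrin from plasmin, at -1.23. Among fibrinogen-like and angiopoietin-like genes, which share the fibrinogen domain, Fgl1 and Angptl4 (-1.01) fell, of 4 tested. In Cre alfp against lox only F11 (-1.32), Serpina10 (-0.58) and Cpb2 (-0.61) were called in these lists, all lower, 1 each of 12, 7 and 5 tested, where 2.62% of all genes were lower.

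In the livers labelled HNF4a null several clotting genes were lower. How they differ from the chains was not tested. Of all genes, 11.7% were lower and 41.1% higher in the limma fit, and 24.9% and 21.4% in the authors' deposited table. In the limma fit 6 of 14 coagulation factors were lower and 1 higher, with F12 at -6.55, F13b at -5.29, F11 at -2.56 and F9 at -1.52 (limma adjusted p 1.92e-06, 0.000214, 3.9e-05 and 0.000482). Of 8 anticoagulants 3 were lower and 1 higher, and of 5 fibrinolysis genes 3 were lower, with Proz at -5.38 and Hrg, a plasma protein that binds plasminogen, at -4.21.

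In hepatocytes, genes of interleukin 6 signalling were mostly not called. In triple null against FoxA3 null 3 of 9 tested were lower and none higher (12.3% and 17.4% of all genes), with a median of -0.49: Lifr, a receptor of the same family, at -1.22 (limma adjusted p 3.44e-05), Il6ra, the interleukin 6 receptor, at -1.02 (adjusted p 0.0329) and the kinase gene Jak1 at -0.49 (adjusted p 0.0122). Without triple null replicate 3 the count was 2. In Cre alfp against lox none of the 9 was called. In the livers labelled HNF4a null 5 of 10 were higher, with Stat3 at 0.68 and a median of 0.37 beside 0.34 over all genes. Of all genes there, 41.1% were higher in the limma fit and 21.4% in the authors' deposited table. Of 9 transcription factors known at fibrinogen promoters, Cebpb was higher by 0.65 in the triple null, and Foxa1 and Foxa2 were lower, as targeted. In the livers labelled HNF4a null 2 of the 9 were higher, Hnf4a itself and Stat3, and 2 lower, Cebpa at -1.43 and Cebpb at -0.74 (limma adjusted p 9.57e-05 and 0.00745), beside 41.1% and 11.7% of all genes; without library GGCTAC 3 were lower. Chaperones and disulfide isomerases, on which chain assembly depends, were mostly uncalled in the triple null (2 of 13 higher, 1 lower, beside 17.4% and 12.3% of all genes; median -0.04). In Cre alfp against lox 6 of 13 were lower, beside 2.62% of all genes, while no chain was called. Hspa5, or BiP, was at -1.59 (limma adjusted p 0.00821), Pdia4 at -1.37, Pdia6 at -1.11 and Hsp90b1 at -1.02. Against lox, FoxA3 null also had 5 of the 13 lower and 0 higher, and triple null 5 lower and 1 higher. Median summed RPKM of these genes was 4315 for lox, 2380 for Cre alfp, 2513 for FoxA3 null and 3103 for triple null. The lowest lox library (2960 RPKM) lay below the highest triple null library (3220 RPKM). What set lox apart was not tested.

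Markers of cell types were followed as a check on the labels; in triple null against FoxA3 null 12.3% of all genes were lower and 17.4% higher. Hepatocyte markers, 9 with values, summed to between 14911 and 20618 RPKM across triple null libraries and between 31654 and 43129 across FoxA3 null ones, and 6 of the 9 fell with the chains. Sinusoidal endothelium markers came to 8.92 to 17.9 RPKM in the triple null against 32.5 to 50.8 in FoxA3 null, with 6 of 9 tested lower. Stellate and fibroblast markers summed to 7.15 to 25.6 RPKM in the triple null against 26.7 to 36.2 in FoxA3 null, with 2 of 4 lower and Col1a1 under 0.1 RPKM on average in both groups. Neutrophil markers summed to 9.13 to 109 RPKM in the triple null and 0.717 to 1.68 in FoxA3 null, with both tested members higher and with Ly6g and Mpo under 0.1 RPKM on average. Of 4 erythroid markers 3 were higher and 1 lower, while their sum was lower, at 8.06 to 29.7 RPKM in the triple null against 34.0 to 48.1 in FoxA3 null. None of 7 Kupffer cell, 2 cholangiocyte or 1 platelet marker tested was called, and no lymphocyte marker reached the filter. In liver, where 41.1% of all genes were higher and 11.7% lower, hepatocyte markers summed to 22874 to 23256 RPKM in controls and 12102 to 13741 in the livers labelled HNF4a null, with 5 of 9 lower and 3 higher. Cholangiocyte markers summed to 16.3 to 16.5 RPKM in controls and 114 to 212 in the other group, with 5 of 5 higher. Both tested neutrophil markers were higher there too, as were 4 of 9 stellate, 3 of 10 endothelial, 3 of 9 Kupffer cell and 1 of 3 platelet markers, while 1 of 5 erythroid markers was lower. Without library GGCTAC 6 of 9 hepatocyte markers were lower and 2 higher, 4 of 5 cholangiocyte markers were higher, 1 of 2 neutrophil and 2 of 9 stellate markers were higher, and of 10 endothelial markers 2 were higher and 1 lower. The part of these cells in the values of the chains was not tested.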

How the data were processed

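RNA of 21 mouse libraries was analysed. The deposited values are RPKM in 1 matrix, made by the authors from reads on build mm9; SAMtools, Cufflinks 2.2.1 and DESeq2 are named per the submitters' processing notes, without their roles. Columns named only by FoxA1/A2 and a number were taken as the lox libraries. Liver columns carry barcodes in place of replicate numbers. A further 9 columns carry no sample's name and stayed out. The 7 comparison tables that the authors deposited give log2 fold change with p-value per gene; the one against Cre alfp has an unadjusted p, which was adjusted here. The sign of the table against controls without deletion was turned, since its direction is the reverse of the others. Absolute depth is unknown, and relative depth was read from low values.

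Differences in log2(RPKM + 1) were tested with limma 3.58.1 (lmFit, eBayes with trend; R 4.3.3) in 1 fit of 15 hepatocyte libraries, for genes with at least 1 RPKM in at least 3 libraries, and 1 fit of 6 liver libraries (at least 2), with Benjamini-Hochberg adjustment over all genes tested. A gene was called at adjusted p under 0.05. The pseudocount of 1 hardly moves genes as abundant as the chains, but it understates changes of low genes. The fit was tested on simulated data. Ratios of chains used exact permutation tests.

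The 3 genes were taken by name, but they and the gene lists were chosen with earlier results of these data known. Named from each list are up to 4 called genes with the largest absolute difference, besides the chains, the targeted genes, the 5 genes most like the chains and the annotated neighbours. Alternatives were another pseudocount, filter, scaling, trend or set of libraries, a replicate block, and leaving out each library. Some genes and a motif are not reported here.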

Additional observations from a re-analysis of the deposited data

Results flagged for a closer look

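In the triple null, replicate 3 lay away from its group in chain proportion. Its Fgb/Fgg ratio was 0.918, against 1.20 to 1.24 in the other 3 libraries, and its Fga/Fgb ratio was 0.863, against 0.536 to 0.587. Each gap was large for a group of 4 by Dixon's test; 24 such groups were examined and 2 were found, where chance gives about 1 in 20, and these are 1 library in 2 ratios that share Fgb, so they are not independent.

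Between FoxA3 null and FoxA3-bearing hepatocytes, the interaction term of the FoxA1/A2 deletion was at -1.33 for Fga (limma adjusted p 0.00598), -0.70 for Fgb (adjusted p 0.0362) and -0.89 for Fgg (adjusted p 0.0316). The call of Fga held without each single library, whereas that of Fgb was lost on leaving out any 1 of 10 libraries and that of Fgg any 1 of 11, of 15 each, and both without a filter on low values. Each side holds 1 FoxA3 genotype, and how the deletion was made in Cre alfp is not given beyond its label, so FoxA3 genotype and anything else that parts the sides cannot be told apart.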

How the results depend on the processing

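The fall of every chain between FoxA3 null and triple null kept its direction and an adjusted p under 0.05 under every alternative fit tried and without each library, as did that of Fgb against lox and against Cre alfp; with an absolute log2 difference of at least 1 also required, Fgg was not called against FoxA3 null (-0.97), nor Fgb against Cre alfp (-0.70). The interaction was less firm. Without a filter on low values Fgb (-0.70, limma adjusted p 0.0946) and Fgg (-0.89, adjusted p 0.0812) lost their calls, as did Fgb with median scaling (-0.70, adjusted p 0.0539). Fga passed against Cre alfp with a filter at 5 RPKM (-0.48, adjusted p 0.0474), median scaling (-0.61) and upper-quartile scaling (-0.66), and against lox with both scalings (-0.63 and -0.66), but under no other alternative fit that kept all libraries of both groups. Fga turned sign between Cre alfp and lox with median (-0.024) and upper-quartile scaling (-0.00177). Quantile normalization turned Fgg between Cre alfp and lox (0.12), called Fgg (0.53) and turned and called Fgb (0.52) between FoxA3 null and lox, and lost Fgg against lox (-0.42). The causes were not tested. As shares of the 3 chains in place of ratios, Fga/Fgg in liver turned to -2.82 and Fgb/Fgg in triple null against FoxA3 null to 1.53 percentage points.

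Same-numbered libraries did not deviate together: of 17 pairs 2 had a correlation over 0.1, and 2 were best matched by their own number. With a replicate block the Fgb interaction was -0.71 (limma adjusted p 0.0607) and Fgb between FoxA3 null and lox 0.00564; it called 448 genes in Cre alfp against lox and 3089 in triple null against FoxA3 null.

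Leaving out 1 library at a time gave -0.042 to 0.053 for Fga and -0.15 to 0.014 for Fgg between Cre alfp and lox, and -0.074 to 0.084 for Fgb between FoxA3 null and lox. The interaction ran from -1.07 to -0.77 for Fgg and from -0.79 to -0.60 for Fgb. Fga ran from -0.71 to -0.36 against lox and from -0.72 to -0.36 against Cre alfp in the triple null. The log2 ratio Fgb/Fgg of the triple null ran from -0.12 to 0.030 against FoxA3 null and from -0.14 to 0.0091 against Cre alfp. Genes called ran from 278 to 595 (Cre alfp against lox), 1043 to 1853 (interaction), 2368 to 4540 (FoxA3 null against lox) and 4030 to 6119 (liver). The lowest of these came without lox replicate 1, lox replicate 1, lox replicate 2 and control ATTCCTA. An absolute log2 difference of at least 1 left 933 genes for triple null against FoxA3 null, 274 for Cre alfp against lox, 784 for the interaction, 1556 and 1184 for the triple null against lox and Cre alfp, 827 for FoxA3 null against lox and 1807 in liver. With the compared groups alone 380 genes were called for Cre alfp against lox. With 2 control livers, wide intervals limit what the liver comparison can show. Over the alternative fits that kept every library, the liver differences ran from 0.19 to 0.65 for Fga and from 0.51 to 0.83 for Fgb. For Fgg they ran from 0.13 to 0.59, and no chain was called in any of them. Median scaling called 4627 genes in liver, beside 6569 in the main fit.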

Other observations

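The library with the highest sum of the chains in its group was also the highest for 6 of 9 class 2 and 6 of 12 class 1 acute phase genes in the triple null (replicate 3), where it was the highest for 44.9% of all genes with a mean of at least 1 RPKM. In the livers labelled HNF4a null (GGCTAC) the counts were 8 of 9 and 8 of 12, beside 28.5% of all genes. In the other groups of 4 the counts were 5 of 9 and 2 of 12 in FoxA3 null (13.2% of all genes) and 1 of 9 and 4 of 12 in Cre alfp (24.1%). Lox had 7 of 9 and 4 of 12 among 3 libraries (22%), and the control livers 9 of 9 and 9 of 12 among 2 (55.6%). The genes below were picked after their values were seen, and no test was made. In triple null replicate 3, Saa1 was 6248 RPKM, against 1326 to 2391 RPKM in the other triple null libraries, Lbp was 44.4 against 17.0 to 22.5 RPKM, Fgl1 257 against 127 to 171 RPKM and Stat3 39.0 against 14.5 to 20.4 RPKM. Haptoglobin (Hp) did not follow: it was 539 RPKM there, between 152 and 658 RPKM in the others.

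Among the livers labelled HNF4a null, library GGCTAC held Fgl1 at 1489 RPKM, against 612 to 794 RPKM in the other 3, Lcn2 at 84.0 against 13.0 to 16.7 RPKM, Serpina3n at 141 against 42.6 to 63.7 RPKM, Hp at 4911 against 2542 to 3203 RPKM and Stat3 at 65.2 against 43.3 to 48.4 RPKM. Albumin (Alb) was 5883 RPKM in it, against 6244 to 7388 RPKM in the others.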
